A study of Mus musculus with 16 samples.

Results

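Mitophagy removes damaged mitochondria by enclosing them in autophagosomes, and mitochondrial biogenesis replaces them. On mitochondria that have lost their membrane potential, the kinase PINK1 accumulates and starts their coating with ubiquitin, after which adaptor proteins tie ubiquitin-coated mitochondria to the forming autophagosome. Receptors in the outer mitochondrial membrane do the same without ubiquitin, and the coactivator PGC-1α switches on nuclear genes that mitochondria need. Neurons depend on both processes because they live long and use much energy, and impaired mitophagy is a known feature of models of tauopathy.

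The genes described here are 10 members of these pathways, found by their symbols among the 54532 genes of the count table. They are the mitophagy kinase gene Pink1, the receptor genes Fundc1, Bnip3 and Bnip3l, the adaptor genes Optn and Sqstm1, the autophagy initiation genes Ulk1 and Ambra1, and the biogenesis genes Ppargc1a and Tfam. All 10 passed the filter on low counts in every comparison, and 17555 genes passed it over all mice. The rule that chose them used symbols and no measured value, but the members were picked with earlier results of these data known.

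RNA was sequenced from the hippocampus of 16 mice in 4 groups of 4. Wild-type mice drank vehicle water (WT) or NR (WT + NR), and so did mice of the hTau.P301S strain (hTau.P301S without NR, hTau.P301S + NR with it). That strain expresses mutant human tau (P301S) from a Thy1 promoter, which is active in neurons, and WT mice carry no such transgene. NR is nicotinamide riboside, a precursor of NAD+, given at 6 mM in drinking water for 3 months from 12 months of age. The mice were 15 months old at the end by the sample labels, while the study's own text gives a younger age and in places a shorter treatment. The mice were not described as litters or pairs, and human tau itself was not measured in the mouse table. Levels are given as CPM, read counts scaled to library size with TMM factors, and differences as log2 fold changes fitted by edgeR with their standard errors (SE). In bulk tissue, fewer cells of a type and less RNA per cell cannot be told apart.

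None of the 10 genes was called in any comparison, where a call needs both an adjusted p under 0.05 and a log2 fold change beyond 0.5 in either direction. The members whose groups did not overlap were few. Tfam was higher in every hTau.P301S mouse than in every WT mouse, and Sqstm1 and Tfam were lower in every hTau.P301S + NR mouse than in every hTau.P301S mouse, although none of these differences passed the test. Over all genes tested, 6.31% did not overlap between hTau.P301S and WT mice and 11.8% with NR in hTau.P301S mice. With NR in WT mice the estimated log2 fold changes of the members lay between -0.10 and 0.11 in the fit of those 8 mice. Their 95% intervals were wider, at -0.621 to 0.557 for Ppargc1a and -0.582 to 0.383 for Fundc1. A change beyond the fold limit of 0.5 lay inside these intervals, but not inside those of the other members.

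RefSeq lists a promoter on GRCm38.p6 for 9 of the 10 members, and Bnip3l is the member without. The promoters of Bnip3 and Ppargc1a are shown because both genes are textbook examples of transcriptional control in this pathway, Bnip3 as a target of hypoxia-inducible factor and Ppargc1a as the regulator at the head of biogenesis. They are written 5′ to 3′ on the minus strand and end at the base before the gene's start in the GENCODE annotation. Capitals mark matches to the motifs below.
Bnip3, chr7:138909520-138909756: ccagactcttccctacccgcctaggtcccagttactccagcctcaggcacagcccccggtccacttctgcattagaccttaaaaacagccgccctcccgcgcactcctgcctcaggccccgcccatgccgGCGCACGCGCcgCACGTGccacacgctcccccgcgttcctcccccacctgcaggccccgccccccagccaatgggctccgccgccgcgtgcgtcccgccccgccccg
Ppargc1a, chr5:51567727-51567975: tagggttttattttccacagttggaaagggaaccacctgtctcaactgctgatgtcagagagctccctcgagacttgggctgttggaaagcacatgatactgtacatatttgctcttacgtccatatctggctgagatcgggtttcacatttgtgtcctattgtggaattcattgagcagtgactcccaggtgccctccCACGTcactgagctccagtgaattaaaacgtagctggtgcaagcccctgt

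Motifs were searched on both strands of the 250 bases before the start that RefSeq gives, a window that for most members includes some bases inside the gene by GENCODE (1 base for Ppargc1a, 13 for Bnip3, 11 for Pink1 and 236 for Tfam). The hypoxia response core ACGTG was found in 2 of the 9 listed members, Bnip3 and Ppargc1a, and in 16.6% of all 32851 listed promoters. In Bnip3 it lies inside the palindrome CACGTG, so the same bases are counted for both motifs, and CACGTG was found in 1 of 9 members and in 6.02% of all promoters. The NRF1 motif, which overlaps none of these, was found in Bnip3 and Pink1 and in 3.74% of promoters. In Ppargc1a the match reads CACGT, the reverse strand of ACGTG, 51 bases before the RefSeq start. The Pink1 match begins 10 bases before the RefSeq start and so lies within the gene by GENCODE. The cAMP response element TGACGTCA and the antioxidant response core TGACNNNGC were found in 0 of 9 members, against 1.55% and 10.2% of promoters. A match describes letters and not a bound site.

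By level per length, in CPM per kilobase of the gene length listed in the deposited table, Pink1 and Sqstm1 stood far above the other members, with medians over the 16 mice of 170 and 139. Next came the receptors Bnip3l at 36.3, Bnip3 at 30.0 and Fundc1 at 20.5. The initiation genes followed, with Ulk1 at 14.1 and Ambra1 at 10.3. Tfam at 8.16, Ppargc1a at 7.18 and Optn at 5.2 were the lowest. Neighbours in this order were separated in all 16 mice, with ranges that did not overlap, in only 2 places, between Sqstm1 and Bnip3l and between Fundc1 and Ulk1. The other neighbours overlapped in range, and Pink1 stood above Sqstm1 in 12 of 16 mice.

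**Figure D1:**
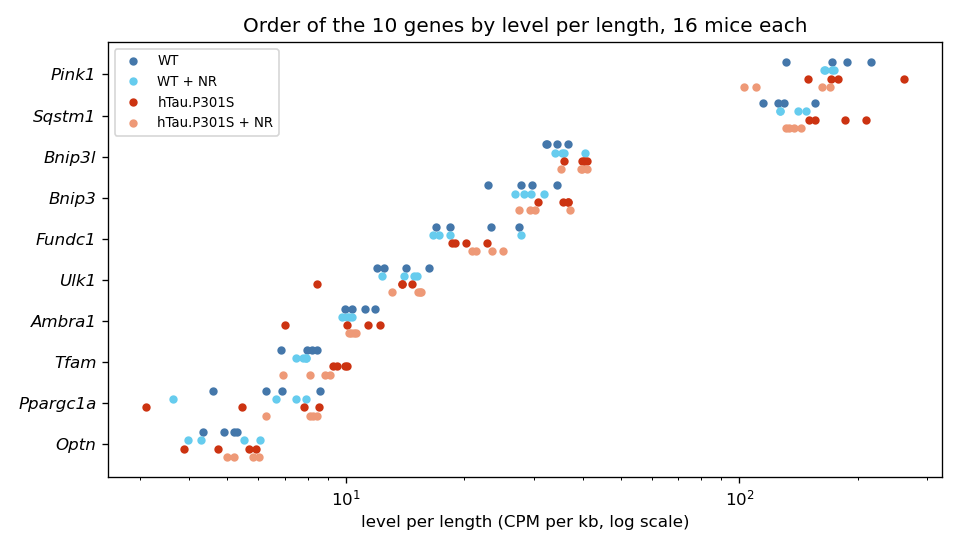
Level per length of the 10 genes (horizontal axis, CPM per kilobase, log scale), with 1 point per mouse coloured by group. Pink1 and Sqstm1 lie above all other members, and the ranges of Tfam, Ppargc1a and Optn overlap.

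The members also differed in how much they varied between mice. The highest mouse exceeded the lowest 2.76-fold for Ppargc1a and 2.55-fold for Pink1, against 1.27-fold for Bnip3l. Within the WT group the coefficient of variation was 25.1% for Ppargc1a and 6.09% for Bnip3l. Counting error alone would give 3.53% for Ppargc1a and 2.04% for Bnip3l. Counts per mouse ran from 171 for Optn in its lowest mouse to 11398 for Sqstm1 in its highest.

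Several libraries stood apart from the rest. Total counts per mouse ran from 16490261 to 21915362. hTau.P301S replicate 1 had 14.4% of its counts from mitochondrially encoded genes and 19467 genes detected, against at most 7.07% and at least 22199 genes in the other 15 mice, and its summed microglia markers reached 1810 CPM against at most 658. C1qa made up 1230 CPM of that sum, while Cx3cr1, another marker of the list, was at its lowest of the 16 mice there, at 29.7 CPM. WT replicate 2, WT + NR replicate 3 and hTau.P301S + NR replicate 4 had summed levels of 8 hippocampal neuron markers of 460, 448 and 418 CPM, against at least 675 in the other mice, and summed striatal neuron markers of 1460, 303 and 509 CPM, against at most 166. All 8 hippocampal neuron markers had at least 10 counts in every mouse. Choroid plexus markers summed to between 19.6 and 9820 CPM. Y-linked Ddx3y outnumbered Xist, the X-inactivation transcript, in 1 of 4 WT, 1 of 4 WT + NR, 2 of 4 hTau.P301S and 3 of 4 hTau.P301S + NR mice, so the sexes, which the labels do not give, were unevenly spread. The part of each of these in the results was not tested, and values with these libraries left out or with sex as a covariate are given beside some of the results.

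**Figure D2:**
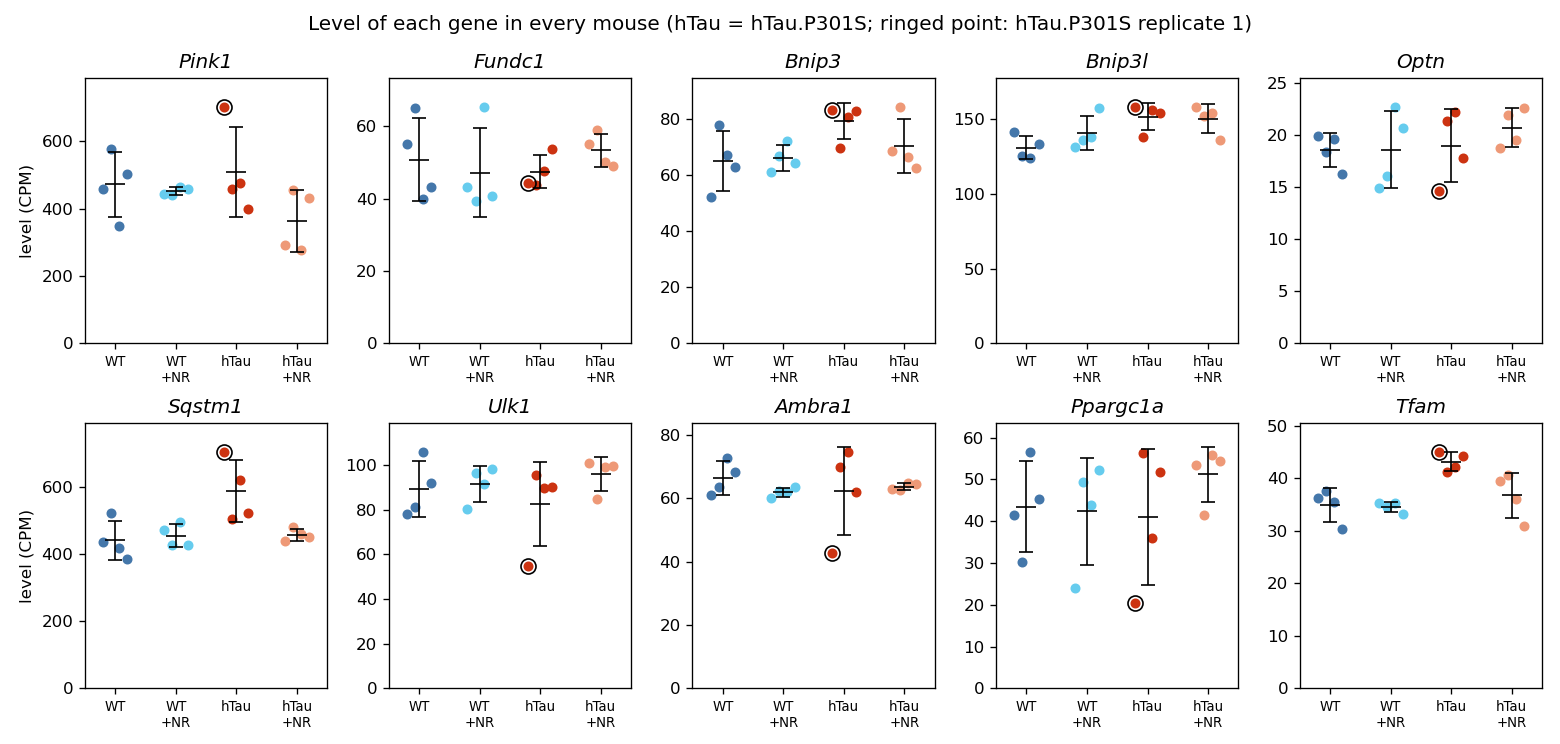
Level of each of the 10 genes (CPM, axes starting at 0) in every mouse of the 4 groups, with the group mean and SD (n = 4) in black and hTau.P301S replicate 1 ringed. Tfam in hTau.P301S mice lies above all WT mice, at 41.1 to 45.0 against 30.3 to 37.5 CPM, and the other 9 genes overlap between these groups.

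Pink1, on chromosome 4 (138313409 to 138326307 on GRCm38, minus strand), encodes the kinase that marks depolarized mitochondria. It stood at 459, 577, 349 and 502 CPM in WT mice and at 442, 440, 464 and 459 CPM in WT + NR mice. In hTau.P301S mice it stood at 702, 457, 476 and 398 CPM and in hTau.P301S + NR mice at 293, 454, 276 and 432 CPM. The highest mouse was hTau.P301S replicate 1, the lowest were hTau.P301S + NR replicates 3 and 1, and all groups overlapped. Pink1 differed by 0.11 (SE 0.26, adjusted p = 0.883) between hTau.P301S and WT mice and by -0.49 (SE 0.26, adjusted p = 0.374) with NR in hTau.P301S mice. The second value carried a 95% interval of -1.10 to 0.11. Without hTau.P301S replicate 1 it was -0.28. The genotype value was -0.10 without that mouse and -0.03 without WT replicate 3.

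Fundc1, on the X chromosome (17556564 to 17572325, minus strand), encodes a receptor that binds LC3 under hypoxia. Its levels were 55.0, 65.0, 40.0 and 43.3 CPM in WT mice and 43.3, 39.3, 65.4 and 40.7 CPM in WT + NR mice. They were 44.4, 43.8, 47.6 and 53.8 CPM in hTau.P301S mice and 55.2, 59.0, 50.2 and 49.1 CPM in hTau.P301S + NR mice. The highest pair of mice, WT replicate 2 and WT + NR replicate 3, are among those named above for low hippocampal and high striatal marker sums. The other mouse so named, hTau.P301S + NR replicate 4, was the lowest of its group, at 49.1 CPM. Fundc1 differed by 0.18 (SE 0.17, adjusted p = 0.835) between hTau.P301S + NR and WT + NR mice. With the 4 libraries that stood apart left out that difference was 0.42 (unadjusted p = 0.00549, adjusted p = 0.269), and with sex as a covariate it was -0.002. The genotype difference without NR was -0.10 (SE 0.20, adjusted p = 0.861), and NR in hTau.P301S mice gave 0.17 (SE 0.14, adjusted p = 0.539).

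Bnip3, on chromosome 7 (138890836 to 138909519, minus strand), and Bnip3l, on chromosome 14 (66985239 to 67008877, minus strand), encode the related receptors BNIP3 and NIX. Bnip3 stood at 52.2, 77.8, 67.2 and 62.9 CPM in WT, 61.0, 66.8, 72.2 and 64.3 in WT + NR, 83.3, 69.6, 80.8 and 82.9 in hTau.P301S and 68.6, 84.3, 66.4 and 62.5 CPM in hTau.P301S + NR mice. Bnip3l stood at 141, 125, 124 and 133 CPM in WT, 131, 136, 138 and 157 in WT + NR, 158, 138, 156 and 154 in hTau.P301S and 158, 152, 154 and 136 CPM in hTau.P301S + NR mice. For both genes 3 of 4 hTau.P301S mice lay above every WT mouse and replicate 2 lay inside the WT range. Between hTau.P301S and WT mice the log2 fold change was 0.28 (SE 0.18, adjusted p = 0.598) for Bnip3 and 0.21 (SE 0.15, adjusted p = 0.614) for Bnip3l. Over the 17 alternatives run for that comparison the lowest values were 0.16 for Bnip3 and 0.15 for Bnip3l, and the adjusted p ran from 0.258 to 0.985 for Bnip3 and from 0.222 to 0.985 for Bnip3l. NR in hTau.P301S mice gave -0.17 (SE 0.15, adjusted p = 0.549) for Bnip3 and -0.02 (SE 0.14, adjusted p = 0.943) for Bnip3l, and the Bnip3 value was -0.08 without the 4 libraries that stood apart. Reads of Bnip3l can be shared with Bnip3l-ps, which matches it at 99.2% over 663 bases and had a median of 140 counts per mouse, and the antisense gene Gm45507, which overlaps Bnip3, had 0 counts in every mouse.

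Optn, on chromosome 2 (5020642 to 5064051, minus strand), encodes optineurin, an adaptor that recognizes ubiquitin on mitochondria. It was the least abundant member per length, at 19.9, 18.4, 19.6 and 16.3 CPM in WT and 14.9, 16.1, 22.7 and 20.7 CPM in WT + NR mice. It stood at 14.6, 21.3, 22.2 and 17.8 CPM in hTau.P301S and 18.7, 21.9, 19.5 and 22.6 CPM in hTau.P301S + NR mice. The groups overlapped in every comparison, and the pairwise log2 fold changes ran from 0.01 to 0.15. The value between hTau.P301S and WT mice was 0.03 (SE 0.19, adjusted p = 0.957), and with NR in hTau.P301S mice it was 0.12 (SE 0.18, adjusted p = 0.728).

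Sqstm1, on chromosome 11 (50199366 to 50210827, minus strand), encodes p62, the adaptor that is itself degraded by autophagy. It stood at 436, 524, 418 and 385 CPM in WT mice and at 473, 426, 496 and 426 CPM in WT + NR mice. In hTau.P301S mice it stood at 705, 504, 621 and 524 CPM and in hTau.P301S + NR mice at 440, 481, 461 and 450 CPM. The 4 hTau.P301S mice overlapped the WT mice only through WT replicate 2, and they did not overlap the hTau.P301S + NR mice. Mean levels were 441 ± 59.4 CPM in WT and 589 ± 93.1 CPM in hTau.P301S mice (SD, n = 4 each), a log2 fold change of 0.42 (SE 0.21, adjusted p = 0.598). NR in hTau.P301S mice gave -0.37 (SE 0.18, adjusted p = 0.368), with a mean of 458 ± 17.9 CPM (SD, n = 4). These comparisons share the hTau.P301S mice. The difference between the NR effects in the genotypes was -0.41 (SE 0.21, adjusted p = 0.558). Without hTau.P301S replicate 1, NR in hTau.P301S mice gave -0.25 (unadjusted p = 0.0484, adjusted p = 0.274). Sqstm1 shares 580 exonic bases with Mrnip on the opposite strand, which had a median of 77 counts per mouse.

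Ulk1, on chromosome 5 (110784488 to 110810097, minus strand), encodes the kinase that starts autophagosome formation, and Ambra1, on chromosome 2 (91730134 to 91918849, plus strand), a regulator of the beclin 1 complex. Ulk1 stood at 78.0, 81.2, 106 and 92.1 CPM in WT, 80.2, 96.6, 91.4 and 98.4 in WT + NR, 54.8, 95.5, 89.9 and 90.4 in hTau.P301S and 101, 84.9, 99.0 and 99.8 CPM in hTau.P301S + NR mice. Ambra1 stood at 61.0, 63.5, 72.8 and 68.4 CPM in WT, 60.0, 62.2, 61.9 and 63.6 in WT + NR, 42.9, 69.8, 74.7 and 62.1 in hTau.P301S and 63.1, 62.5, 64.8 and 64.4 CPM in hTau.P301S + NR mice. For both genes hTau.P301S replicate 1 was the lowest of the 16 mice. The log2 fold change between hTau.P301S and WT mice was -0.11 (SE 0.21, adjusted p = 0.855) for Ulk1 and -0.09 (SE 0.20, adjusted p = 0.874) for Ambra1. Without that mouse they were 0.03 and 0.04. NR in hTau.P301S mice gave 0.22 (SE 0.19, adjusted p = 0.552) for Ulk1 and 0.03 (SE 0.18, adjusted p = 0.944) for Ambra1. The Ulk1 value was 0.08 without hTau.P301S replicate 1, and without the 4 libraries that stood apart it was 0.05. Ambra1 in hTau.P301S + NR mice spread by 1.66% (coefficient of variation) against a counting error of 2.80%.

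Ppargc1a, on chromosome 5 (51454250 to 51567726, minus strand), encodes PGC-1α. Tfam, on chromosome 10 (71225464 to 71238280, minus strand), encodes a factor that packages mitochondrial DNA and takes part in its transcription. Ppargc1a stood at 41.4, 30.3, 56.6 and 45.4 CPM in WT, 24.0, 49.3, 43.8 and 52.3 in WT + NR, 20.5, 56.2, 35.9 and 51.8 in hTau.P301S and 53.4, 41.5, 55.8 and 54.3 CPM in hTau.P301S + NR mice. All groups overlapped, with hTau.P301S replicate 1 and WT + NR replicate 1 the lowest mice. The genotype difference of -0.08 (SE 0.32, adjusted p = 0.937) carried a 95% interval of -0.82 to 0.66. A difference of the size of the fold limit in either direction lay inside that interval. NR in hTau.P301S mice gave 0.32 (SE 0.29, adjusted p = 0.566). That value was 0.11 without hTau.P301S replicate 1, 0.07 without the 4 libraries that stood apart and 0.54 (adjusted p = 0.295) with sex as a covariate, and leaving out hTau.P301S replicate 2 gave 0.51. The genotype value without hTau.P301S replicate 1 was 0.14.

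Tfam stood at 36.3, 37.5, 35.4 and 30.3 CPM in WT mice and at 35.3, 34.5, 35.2 and 33.2 CPM in WT + NR mice. In hTau.P301S mice it stood at 45.0, 41.1, 42.2 and 44.2 CPM, and in hTau.P301S + NR mice at 39.4, 40.5, 36.1 and 30.8 CPM. Mean levels were 34.9 ± 3.15 CPM in WT and 43.2 ± 1.81 CPM in hTau.P301S mice (SD, n = 4 each), with no overlap. The log2 fold change was 0.31 (SE 0.15, adjusted p = 0.598), and with NR in hTau.P301S mice it was -0.24 (SE 0.15, adjusted p = 0.414), or -0.13 without the 4 libraries that stood apart. Over all 16 mice, with NR as an additive term, Tfam differed between the genotypes by 0.20 (SE 0.09, unadjusted p = 0.0369, adjusted p = 0.616), and it was the single member with an unadjusted p under 0.05 there. With sex as a covariate in that fit of 16 mice, 0 members had an unadjusted p under 0.05, against 5.27% of all genes. The genotype difference with NR was 0.09 (SE 0.11, adjusted p = 0.869), and -0.01 with sex as a covariate.

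**Figure D3:**
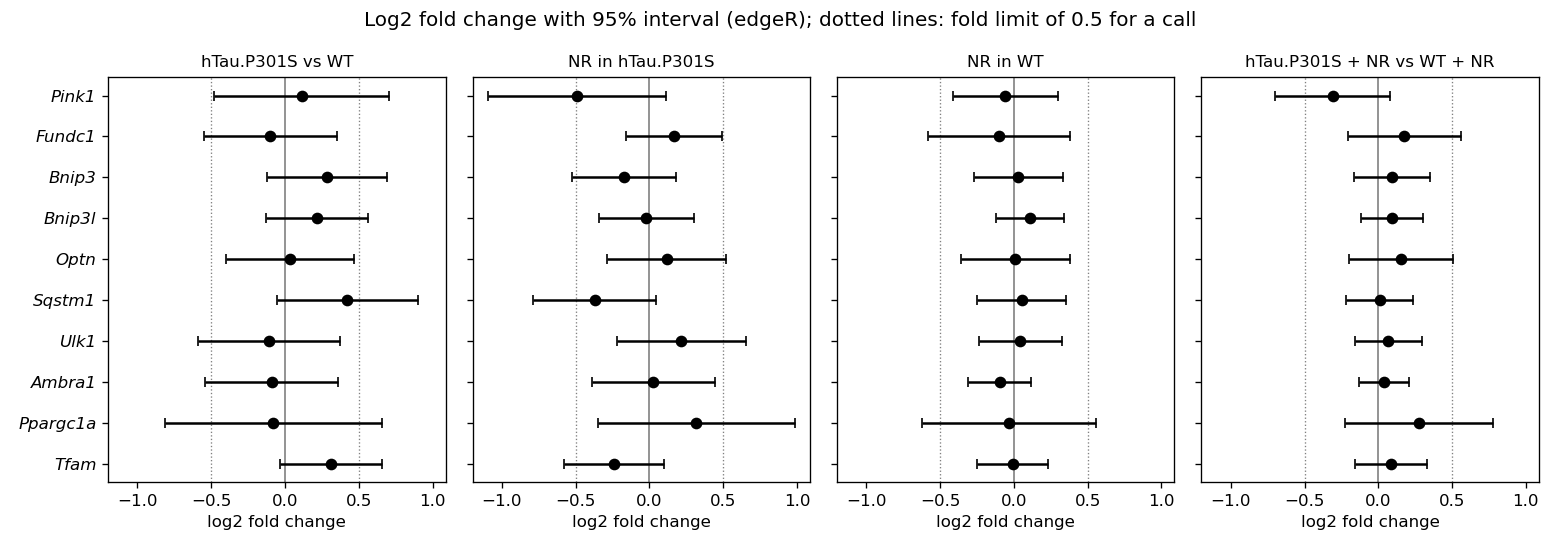
Log2 fold change (horizontal axis) of each gene in the 4 pairwise comparisons, with the 95% interval from edgeR, and dotted lines at the fold limit of 0.5. Every interval crosses 0, and those of Ppargc1a and of Pink1 with NR in hTau.P301S mice are among the widest.

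Over the 4 pairwise comparisons the smallest adjusted p of a member was 0.368, for Sqstm1 with NR in hTau.P301S mice. Counts of calls were read against the whole table. Between hTau.P301S and WT mice 0 of 10 members were called, against 0.00611% of all genes tested, and 0 members had an unadjusted p under 0.05, against 7.14% of all genes. With NR in hTau.P301S mice 0 members were called, against 0.0061% of genes, and 0 had an unadjusted p under 0.05, against 12.9%. With NR in WT mice both counts were 0, against 0.0% and 0.79%. Between hTau.P301S + NR and WT + NR mice both were 0, against 0.054% and 6.09%. For genotype over all mice 0 members were called and 1 had an unadjusted p under 0.05, against 0.12% and 7.75%. For the interaction both were 0, against 0.0% and 7.92%. DESeq2 on the same mice also called 0 members in each comparison. With all 16 mice in 1 fit, more members had an unadjusted p under 0.05, though 0 were called. Between hTau.P301S and WT mice 3 were higher with DESeq2 and 2 with edgeR, against 11.7% and 18.1% of genes, and 0 were lower. With NR in hTau.P301S mice 3 were lower with DESeq2 and 2 with edgeR, against 13% and 22.5%, and 0 were higher.

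Groups that did not overlap held 1 member between hTau.P301S and WT mice, against 6.31% of 17555 genes, and 2 members with NR in hTau.P301S mice, against 11.8%. They held 0 members with NR in WT mice, against 0.826%, and 0 between hTau.P301S + NR and WT + NR mice, against 3.77%. The median log2 fold change of the members was 0.07 between hTau.P301S and WT mice, beside 0.02 over all genes tested, and 0.00 with NR in hTau.P301S mice, beside -0.03. Between hTau.P301S + NR and WT + NR mice 9 of 10 members had values above 0 and the median was 0.09, beside -0.02 over all genes. With sex as a covariate 5 of 10 were above 0 and the median was 0.02, where 3 of 4 and 1 of 4 mice of these groups were male by their counts. The member that lay below 0 there was Pink1, at -0.31 (SE 0.17, adjusted p = 0.781).

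Without hTau.P301S replicate 1 the members with an unadjusted p under 0.05 numbered 0 between hTau.P301S and WT mice, against 11.8% of genes, and 1 with NR in hTau.P301S mice (Sqstm1), against 18.0%. For genotype over all mice they numbered 1 (Tfam), against 13.3%. With all 4 libraries that stood apart left out, 3 members, Bnip3, Sqstm1 and Tfam, had higher values in the hTau.P301S group than in the WT group at this level, against 16.3% of genes in either direction. There were then 0 with NR in hTau.P301S mice (17.9%), 1 between hTau.P301S + NR and WT + NR mice (Fundc1, 11.0%), and 1 in the interaction (Sqstm1, 13.4%). For genotype over the remaining 12 mice there were 5, Fundc1, Bnip3, Bnip3l, Sqstm1 and Tfam, all higher in hTau.P301S carriers, against 16.4% of genes. The smallest adjusted p among these 5 was 0.143, for Tfam, so 0 members were called there too.

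The deviation of hTau.P301S replicate 1 from the other 15 mice ran with gene length. Over 5 equal groups of genes from the shortest to the longest, its median log2 difference from the mean of the others was 1.22, 0.44, -0.06, -0.49 and -0.95. Its level lay outside the range of the other 15 mice for 7 of the 10 members, below it for Optn, Ulk1, Ambra1 and Ppargc1a and above it for Pink1, Sqstm1 and Tfam. Over all genes tested, 35.1% lay below that range and 31.8% above it. The difference was -1.13 for Ppargc1a, the longest member at 6592 bases, and 0.72 for Pink1, at 2673 bases. Not every member followed length, with -0.154 for Fundc1 at 2353 bases, 0.275 for Bnip3 at 2265 bases and 0.298 for Tfam at 4438 bases. Fundc1, Bnip3 and Bnip3l lay inside the range.

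**Figure D4:**
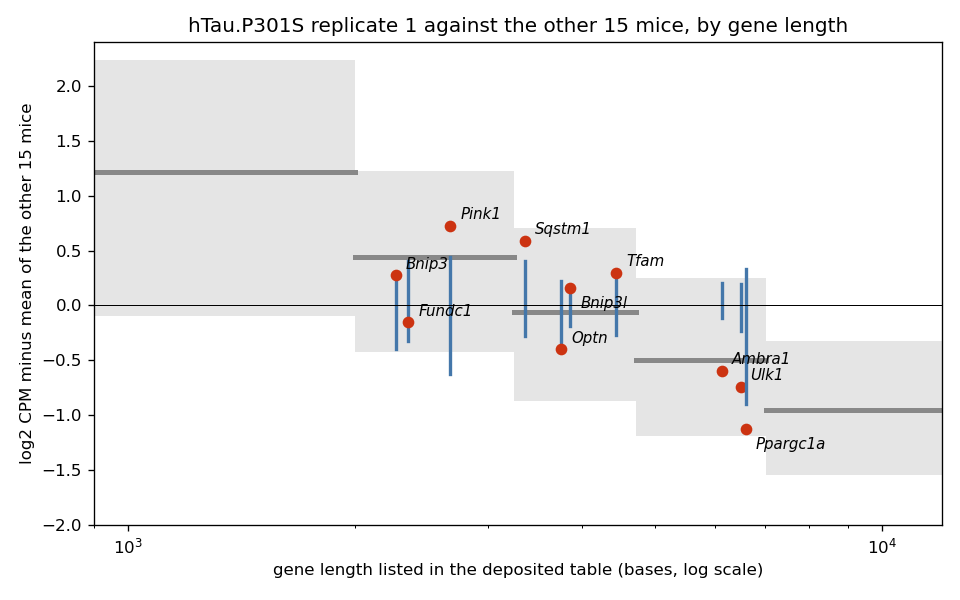
Log2 CPM of hTau.P301S replicate 1 minus the mean of the other 15 mice (vertical axis) against listed gene length (horizontal axis, bases, log scale). Red points are the 10 genes, blue lines the range of the other 15 mice for each, and grey bars and bands the median and middle 50% of all genes in each of 5 length groups. The 3 longest members, Ulk1, Ambra1 and Ppargc1a, lie below 0, as do Optn and Fundc1.

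Genes mitochondria encode were counted beside these nuclear genes. They took 7.91 ± 4.47% of counts in hTau.P301S mice and 5.25 ± 0.847% in WT mice (SD, n = 4 each, two-sided exact permutation p = 0.229). With NR in hTau.P301S mice the share was 5.49 ± 0.861% (exact permutation p = 0.371), and in WT + NR mice it was 4.82 ± 0.314% (exact permutation p = 0.600 against WT). The hTau.P301S + NR and WT + NR groups differed with an exact permutation p of 0.314, and 4 mice against 4 cannot give a p under 0.0286. All 13 mitochondrially encoded mRNAs were above 0 in the hTau.P301S against WT comparison, with a median log2 fold change of 0.67 and 2 at an unadjusted p under 0.05. Without hTau.P301S replicate 1 there were 9 above 0, a median of 0.24 and 0 at that level.

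Other mitophagy factors numbered 27, of which 26 were tested in the 4 pairwise comparisons. Between hTau.P301S and WT mice none had an unadjusted p under 0.05, against 7.14% of all genes, and the median was 0.10. Leaving out hTau.P301S replicate 1 gave 2 higher, against 11.8% of all genes. Under NR, 4 of 26 were lower in hTau.P301S mice at that level and 0 higher, against 12.9% of all genes in either direction. Without hTau.P301S replicate 1, 5 were lower and 0 higher, against 18.0% of all genes. Among the 4 found with all mice was Nipsnap1, a matrix protein that flags damaged mitochondria, at -0.54 (SE 0.20). Tomm7, which stabilizes PINK1 at the outer membrane, was another, at -2.24 (SE 0.97). Both had an adjusted p of 0.367 in edgeR's test. Both values include hTau.P301S replicate 1, the mouse whose deviation ran with gene length. The values of these genes without that mouse are not reported here. Tomm7 and Phb2, a prohibitin of the inner membrane, were also lower in hTau.P301S + NR than in WT + NR mice, at -0.76 (SE 0.20, adjusted p = 0.757) and -0.26 (SE 0.10, adjusted p = 0.781).

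Of 34 other autophagy initiation and conjugation factors, 1 was higher and 0 lower at an unadjusted p under 0.05 between hTau.P301S and WT mice, against 7.14% of all genes in either direction. Leaving out hTau.P301S replicate 1 gave 4 higher, against 11.8%. The gene found with all mice was Pik3c3, the lipid kinase of the beclin 1 complex, at 0.35 (SE 0.15, adjusted p = 0.598). NR in hTau.P301S mice left 0 higher and 3 lower (5 lower without replicate 1), against 12.9% of all genes (18.0% without replicate 1). The 3 genes were Nrbf2 at -0.55 (SE 0.20), Atg101 at -1.11 (SE 0.43) and Atg13 at -0.30 (SE 0.13), where the last pair are partners of ULK1. Each had an adjusted p of 0.367. For genotype over all mice 4 were higher and 0 lower, against 7.75% of all genes, with Pik3c3 at 0.23 (SE 0.09), Map1lc3b, which encodes LC3B, at 0.23 (SE 0.09) and Atg7 at 0.21 (SE 0.10). Their adjusted p values were 0.543, 0.578 and 0.637.

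Of 28 other biogenesis and mitochondrial DNA maintenance factors, 0 passed an unadjusted p of 0.05 between hTau.P301S and WT mice, and 2 were lower without hTau.P301S replicate 1, against 7.14% and 11.8% of all genes. In hTau.P301S mice given NR 2 were higher and 0 lower, and 3 were higher without replicate 1, against 12.9% and 18.0% of all genes. The 2 were Esrrg, a nuclear receptor partner of PGC-1α, at 1.02 (SE 0.40) and Gabpa at 0.38 (SE 0.16), both with an adjusted p of 0.367. Gabpa encodes the DNA-binding part of nuclear respiratory factor 2, which is not the NRF2 whose targets are counted below. Esrra was lower in hTau.P301S + NR than in WT + NR mice, at -0.46 (SE 0.18, adjusted p = 0.781).

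Genes known to respond to hypoxia, as Bnip3 does, and targets of NRF2, which is activated when p62 accumulates, were counted as well. Of 17 hypoxia genes tested between hTau.P301S and WT mice, 1 was higher and 1 lower at an unadjusted p under 0.05, Ndrg1 at 0.51 (SE 0.18) and Vegfa at -1.22 (SE 0.33), both with an adjusted p of 0.598, and without hTau.P301S replicate 1 there were 3 higher and 1 lower. These counts stand against 7.14% and 11.8% of all genes. With NR in hTau.P301S mice 1 of 18 was higher and 3 lower, against 12.9% of all genes, with Ddit4, an inhibitor of mTOR signalling, at -1.28 (SE 0.27, adjusted p = 0.266). Without hTau.P301S replicate 1, Ddit4 was called, at -1.42 (SE 0.21, adjusted p = 0.0496). That fit called 33 of 16734 genes, against 1 of 16386 with all mice. Car9 was higher at 1.27 (SE 0.46) and Pgk1 lower at -0.69 (SE 0.26) with all mice, both with an adjusted p of 0.367.

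Of the 11 NRF2 targets, 2 were higher and 1 lower between hTau.P301S and WT mice at that level, and 2 and 0 without hTau.P301S replicate 1, against the same shares of all genes. With all mice they were Hmox1, heme oxygenase 1, at 1.10 (SE 0.36), Fth1, ferritin heavy chain, at 1.69 (SE 0.65) and Slc7a11, a cystine transporter, at -1.20 (SE 0.47), each with an adjusted p of 0.598. In the NR comparison of hTau.P301S mice Slc7a11 alone passed that level, against 12.9% of all genes, at 1.04 (SE 0.39, adjusted p = 0.367). In these gene lists, values named with all mice for the hTau.P301S group include replicate 1, whose deviation ran with gene length. Except for Ddit4, the values of the named genes without that mouse are not reported here.

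The genes whose levels were most like those of each member were found by the root mean square difference of mean-centred log2 CPM over the 16 mice. This difference was smallest for Tfam with Hspa9, at 0.061, and for Sqstm1 with Pa2g4, at 0.068. The members' own root mean square deviations from their means were 0.164 for Tfam and 0.214 for Sqstm1. Pink1 was nearest to Yipf3 at 0.139 and Mul1 at 0.144, and Ppargc1a to Eif5a2 at 0.148 and Dennd5b at 0.176. Fundc1 was nearest to Maoa and Atic, Bnip3 to Tagap1 and Ube2d2a, Bnip3l to Eif3j1 and Tor1aip2, and Optn to Ctnnbip1, at 0.069 to 0.120. Sqstm1 and Tfam had Cct2 and Ube2d3 as their next nearest genes, Ulk1 had Acsl6 and Dcun1d4, and Ambra1 had Adpgk and Nolc1. Among the members, Ulk1 and Ambra1 were nearest to each other, at 0.122, and Sqstm1 and Tfam to each other, at 0.134. These values describe 16 mice that include hTau.P301S replicate 1.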

How the data were processed

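Hippocampal RNA from 16 mice was sequenced. The authors trimmed the reads with Trim Galore, aligned them to mm10 with STAR and counted them per gene with RSEM. They deposited raw counts as whole numbers, without normalization, beside another value, a length for each gene whose definition is not given in the sources used here. Versions and strandedness are likewise not given in the sources used here.

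Genes that passed the default filter of edgeR (4.0.16, under R 4.3.3) were tested together, with TMM scaling, the quasi-likelihood test and Benjamini-Hochberg adjustment. Pairwise comparisons used the 8 mice of the groups compared. Genotype with NR as an additive term, and the interaction, used all 16. Limits for a call were an adjusted p under 0.05 and, except for the interaction, an absolute log2 fold change above 0.5. Log2 CPM used a prior count of 2. Shares were compared by exact permutation tests with scipy 1.17.1. Alternatives were DESeq2 1.42.0, its size factors, no filter, no mitochondrial genes, all mice in one fit, a replicate block and leaving out each mouse. Sex inferred from Xist and Ddx3y as a covariate, and leaving out 4 libraries that stood apart, were chosen after seeing the data. The scripts were tested on simulated counts. P-values set a difference between groups against the spread between mice.

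All 10 members are named with every mouse. From each other list, at most the 3 genes with the smallest unadjusted p under 0.05 in a comparison are named, and for each member the 2 genes with the smallest root mean square difference. Some genes that this rule selects are not reported here. The members and lists were chosen with earlier results of these data known. Positions are from GENCODE M21 on GRCm38 and promoters from RefSeq on GRCm38.p6. Total counts per mouse of 16490261 to 21915362 gave each member at least 171 counts in its lowest mouse.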

Additional observations from a re-analysis of the deposited data

Results flagged for a closer look

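In 40 groups of 4 mice (10 genes in 4 groups), 4 held a mouse that lay far from the other 3, by Dixon's ratio of its gap to the group's range above its 95% critical value. Chance flags about 1 in 20 groups. Bnip3 in hTau.P301S mice had a ratio of 0.833 for replicate 2, at 69.6 CPM. Ulk1 in hTau.P301S mice had a ratio of 0.890 for replicate 1, at 54.8 CPM. Ulk1 in hTau.P301S + NR mice had a ratio of 0.893 for replicate 2, at 84.9 CPM, and Ppargc1a in the same group a ratio of 0.850 for that mouse, at 41.5 CPM.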

How the results depend on the processing

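No member was called under any of 114 other fits, and the smallest adjusted p of a member was 0.0871, for Sqstm1 between hTau.P301S and WT mice with DESeq2 on all 16 mice in one fit. Of the 60 member values (10 genes in 6 comparisons), 34 kept their sign in every fit and 26 changed it in at least 1. Total counts and 4 mice per group limit the precision of each value.

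With the 4 libraries that stood apart left out, log2 fold changes took the other sign for Fundc1 (hTau.P301S vs WT) at 0.057, Ambra1 (hTau.P301S vs WT) at 0.016, Bnip3l (NR in hTau.P301S) at 0.056, Optn (NR in hTau.P301S) at -0.026, Ambra1 (NR in hTau.P301S) at -0.113, Pink1 (NR in WT) at 0.034, Optn (NR in WT) at -0.112, Ulk1 (NR in WT) at -0.002, Tfam (NR in WT) at 0.012, Ulk1 (genotype over all mice) at 0.028, Ambra1 (genotype over all mice) at 0.036. With sex as a covariate they did so for Optn (NR in WT) at -0.002, Fundc1 (hTau.P301S + NR vs WT + NR) at -0.002, Bnip3 (hTau.P301S + NR vs WT + NR) at -0.010, Sqstm1 (hTau.P301S + NR vs WT + NR) at -0.041, Tfam (hTau.P301S + NR vs WT + NR) at -0.012. DESeq2 on the same mice turned the sign for Bnip3l (NR in hTau.P301S) at 0.001. Dropping the filter on low counts did so for Bnip3l (NR in hTau.P301S) at 0.016. The replicate block did so for Optn (NR in WT) at -0.009. 

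With 1 mouse left out in turn, the lowest and highest values of those that changed sign were -0.096 and 0.203 for Pink1 (hTau.P301S vs WT), -0.215 and 0.026 for Fundc1 (hTau.P301S vs WT), -0.048 and 0.132 for Optn (hTau.P301S vs WT), -0.210 and 0.035 for Ulk1 (hTau.P301S vs WT), -0.186 and 0.043 for Ambra1 (hTau.P301S vs WT), -0.290 and 0.135 for Ppargc1a (hTau.P301S vs WT), -0.050 and 0.029 for Bnip3l (NR in hTau.P301S), -0.102 and 0.124 for Ambra1 (NR in hTau.P301S), -0.183 and 0.045 for Pink1 (NR in WT), -0.302 and 0.037 for Fundc1 (NR in WT), -0.061 and 0.121 for Bnip3 (NR in WT), -0.105 and 0.085 for Optn (NR in WT), -0.005 and 0.142 for Sqstm1 (NR in WT), -0.012 and 0.130 for Ulk1 (NR in WT), -0.177 and 0.149 for Ppargc1a (NR in WT), -0.068 and 0.022 for Tfam (NR in WT), -0.008 and 0.144 for Bnip3 (hTau.P301S + NR vs WT + NR), -0.024 and 0.055 for Sqstm1 (hTau.P301S + NR vs WT + NR), -0.009 and 0.123 for Fundc1 (genotype over all mice), -0.054 and 0.055 for Ulk1 (genotype over all mice), -0.065 and 0.042 for Ambra1 (genotype over all mice), -0.004 and 0.214 for Ppargc1a (genotype over all mice), -0.004 and 0.231 for Ambra1 (NR by genotype interaction). The cause was not tested.

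Same-numbered mice of compared groups correlated between -0.537 and 0.287 in their deviations from the group means. Mice of different numbers correlated between -0.559 and 0.592. Because these ranges overlap, they cannot decide whether the replicate numbers pair the mice. The block left 0 members called in every comparison and gave Sqstm1 0.417 between hTau.P301S and WT mice and -0.402 in the interaction.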
